A study of Mus musculus with 8 samples.

Results

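Il1b, which encodes the cytokine interleukin-1 beta, and 9 further genes of interleukin-1 (IL-1) and NF-kappaB signalling were examined in mouse liver. The 10 genes were chosen by symbol with earlier results of these arrays in view, so their levels and differences below are a description. Of the 10, 9 were measured here, out of 19935 genes in all, and Nfkb1 was not analysed here. Each of the 9 had a single probe set that named it alone.

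RNA of 8 liver samples from male C57Bl/6 mice aged 10 to 12 weeks was hybridised to Affymetrix microarrays, with 1 array per sample. Of these, 4 were NS-DADm, in which NCOR and SMRT, corepressors of nuclear receptors, both have a mutated deacetylase-activating domain (DAD), the stretch that binds and activates the histone deacetylase HDAC3. The remaining 4 were wild type (WT). All mice ate normal chow under 12 h light and 12 h dark and were sampled 10 h after lights on (zeitgeber time 10). The labels name no promoter or cell type that would restrict the mutation, and they do not say whether each array came from a separate animal. The p-values therefore measure only the spread between these arrays, which may be technical. Hepatocyte markers such as Alb and Ttr were among the brightest on every array, with a mean over 8 markers of 13.34 to 13.37 in WT and 13.30 to 13.34 in NS-DADm livers on the log2 scale.

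IL-1 beta binds a receptor whose adaptors activate the IKK kinases, and IKK marks the inhibitor IkB-alpha for destruction. NF-kappaB dimers built from the Rel proteins then enter the nucleus and bind short DNA elements called kappaB sites. Several of the genes that NF-kappaB switches on encode its own inhibitors, so the pathway limits itself. In liver, Kupffer cells, the resident macrophages, are a main source of IL-1 beta, and hepatocytes answer with acute phase proteins. NCOR and SMRT with HDAC3 are known to hold down some inflammatory genes in macrophages.

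Promoter windows from RefSeq (build GRCm38.p6, 250 bases before to 50 bases after an annotated start site) were found for 8 of the 10 genes, with 14 start sites between them. Relb and Nfkb1 had no entry. The kappaB consensus, a degenerate motif of 10 bases searched on both strands, was present at 7 of the 14 start sites, in Tifa, Nfkbia, Bcl3, Nfkb2 and Tnfaip3. It was present in 8.46% of all 32851 windows of the same length. The looser form GGGANNNNCC, which overlaps the consensus, was present at 10 of the 14 and in 20.7% of all windows. Start sites of 1 gene can share bases, and 1 match lies in the windows of both later Nfkb2 starts. Shown here is part of 1 window of each gene with a match, and part of that of Il1b, which had none. The parts hold 150 bases each, but 112 in Bcl3 and 27 in Tifa. They run 5′ to 3′ along the gene's strand, end at the base before the start site except in Bcl3 and Tifa, and carry consensus matches in capitals.
Nfkbia (chr12:55492648-55492797, minus strand): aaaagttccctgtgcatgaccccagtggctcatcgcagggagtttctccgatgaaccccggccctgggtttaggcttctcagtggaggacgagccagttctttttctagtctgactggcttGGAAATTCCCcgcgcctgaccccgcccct
Tnfaip3 (chr10:19015411-19015560, minus strand): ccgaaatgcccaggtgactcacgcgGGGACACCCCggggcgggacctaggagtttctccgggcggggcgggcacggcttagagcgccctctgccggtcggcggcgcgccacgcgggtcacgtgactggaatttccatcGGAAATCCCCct
Nfkb2, first start (chr19:46304587-46304736, plus strand): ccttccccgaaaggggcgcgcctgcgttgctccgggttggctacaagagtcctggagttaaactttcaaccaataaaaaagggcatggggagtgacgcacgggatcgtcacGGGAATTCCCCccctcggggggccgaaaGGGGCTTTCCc
Bcl3 (chr7:19822744-19822855, minus strand): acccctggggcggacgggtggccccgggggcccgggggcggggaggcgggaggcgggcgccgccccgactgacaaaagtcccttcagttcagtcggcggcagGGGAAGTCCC
Tifa, second start (chr3:127790680-127790706, plus strand): gttgtgatccGGGATTTTCCaattttc
Il1b (chr2:129371140-129371289, minus strand): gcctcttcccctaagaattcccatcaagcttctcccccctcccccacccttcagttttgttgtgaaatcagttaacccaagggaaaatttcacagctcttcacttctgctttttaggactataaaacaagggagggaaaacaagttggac
The Nfkbia match begins 29 bases before the start site and lies on the strand opposite to the gene. Tnfaip3 has matches beginning 125 and 12 bases before its start. In Nfkb2 matches that begin 39 and 38 bases before the start overlap in a single run of capitals, and another begins 11 bases before it. The Bcl3 match begins at base 3 of the transcript and the Tifa match at base 34. The windows of Il1b, Il1rn and Rela held no match to the consensus, which says only that these letters were not found there.

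**Figure D1:**
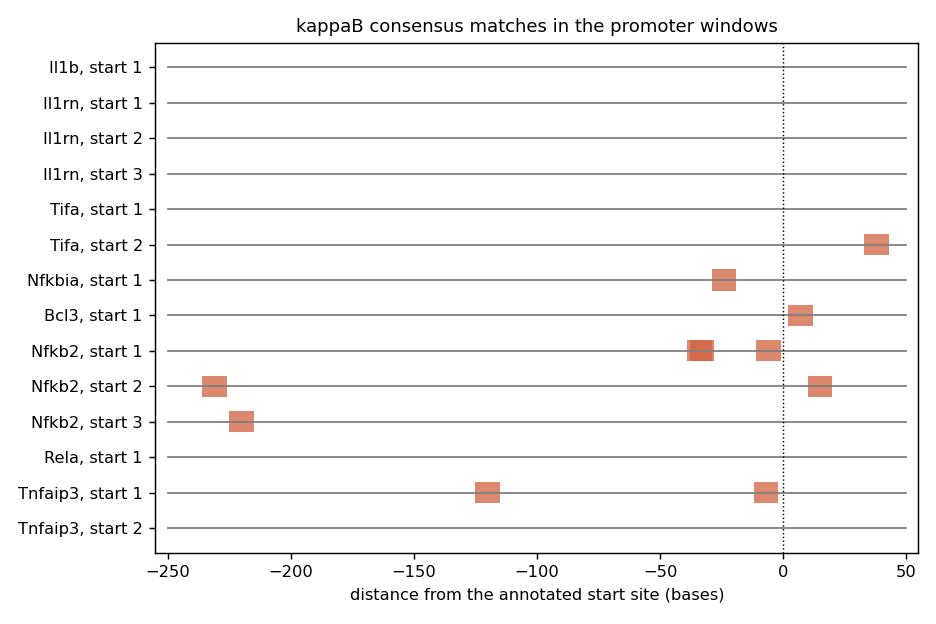
Matches to the kappaB consensus (orange boxes, 10 bases each) in the RefSeq promoter windows of 8 genes, against distance from the annotated start site in bases (dotted line). Of the 14 windows 7 hold a match, and those of Il1b, Il1rn and Rela hold none.

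Il1b was higher on every NS-DADm array than on any WT array. Its log2 intensity was 6.43, 6.14, 6.13 and 6.36 in WT replicates 1 to 4 and 6.87, 6.79, 6.85 and 7.17 in NS-DADm replicates 1 to 4. The lowest NS-DADm array lay 0.37 above the highest WT array, and NS-DADm replicate 4 was the highest of all. The means were 6.26 ± 0.15 and 6.92 ± 0.17 (log2, SD, n = 4 each), a difference of 0.66 (SE 0.097) or 1.58-fold, with a 95% confidence interval of 1.36 to 1.83. Its mean over the 8 arrays, 6.59, was below the median of all genes (7.59) and below every array's median, and RMA values compress differences at low intensity. In bulk liver fewer or more cells of a type and less or more RNA per cell cannot be told apart.

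Within each group the arrays with the highest Il1b were also high for Kupffer cell markers, while those markers did not separate the groups. The mean of 11 Kupffer cell markers, among them Clec4f and Vsig4, was 9.05, 8.72, 8.57 and 9.17 in WT replicates 1 to 4 and 8.52, 8.77, 9.12 and 9.39 in NS-DADm replicates 1 to 4. WT replicates 1 and 4 and NS-DADm replicate 4 were thus high for both, but the other NS-DADm arrays were ordered differently for Il1b and for these markers. NS-DADm replicate 4 was also the highest NS-DADm array for the means of monocyte, neutrophil, sinusoidal endothelial, stellate, T and NK, and B cell markers. Which of these marker lists, if any, goes with the Il1b level of that array was not tested. NS-DADm replicate 1 had the lowest Kupffer cell mean of all 8 arrays and an Il1b level of 6.87. The groups overlapped for these markers, and 9 of 11 had differences above 0, against 44.3% of all genes. In the test over all genes 0 of 11 passed (limma, adjusted p at or above 0.05), against 0.271% of all genes. At an unadjusted p under 0.05 there were also 0 of 11, against 9.33% of all genes. With the Kupffer cell mean as a covariate, a fit added after the data were seen, the Il1b difference was 0.63. Because that mean was close in the 2 groups, the fit could move the difference little and cannot measure its part. The part of Kupffer cell content in the Il1b difference was not tested.

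Il1rn encodes the IL-1 receptor antagonist, which occupies the IL-1 receptor without signalling. It was at 7.54, 7.47, 7.77 and 7.72 in the WT arrays and at 8.05, 7.78, 7.64 and 7.99 in the NS-DADm arrays. The groups overlapped, with NS-DADm replicate 3 below WT replicates 3 and 4. The means were 7.62 ± 0.14 and 7.87 ± 0.19 (log2, SD, n = 4 each), a difference of 0.24 with a 95% interval of 0.02 to 0.46.

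Tifa, an adaptor that oligomerises and engages TRAF proteins upstream of IKK, differed most of the 9 genes. It was at 8.04, 7.98, 8.26 and 8.59 in the WT arrays and at 9.03, 9.36, 9.13 and 8.98 in the NS-DADm arrays. The groups did not overlap, with WT replicate 4 the nearest to the NS-DADm arrays at 0.39 below the lowest of them. The means were 8.22 ± 0.27 and 9.12 ± 0.17 (log2, SD, n = 4 each), a difference of 0.91 (SE 0.13), or 1.87-fold with a 95% interval of 1.54 to 2.29. Its relative Tifab was at a difference of 0.00. By absolute difference Tifa ranked 38 among the 19935 genes, Bcl3 72 and Il1b 89.

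**Figure D2:**
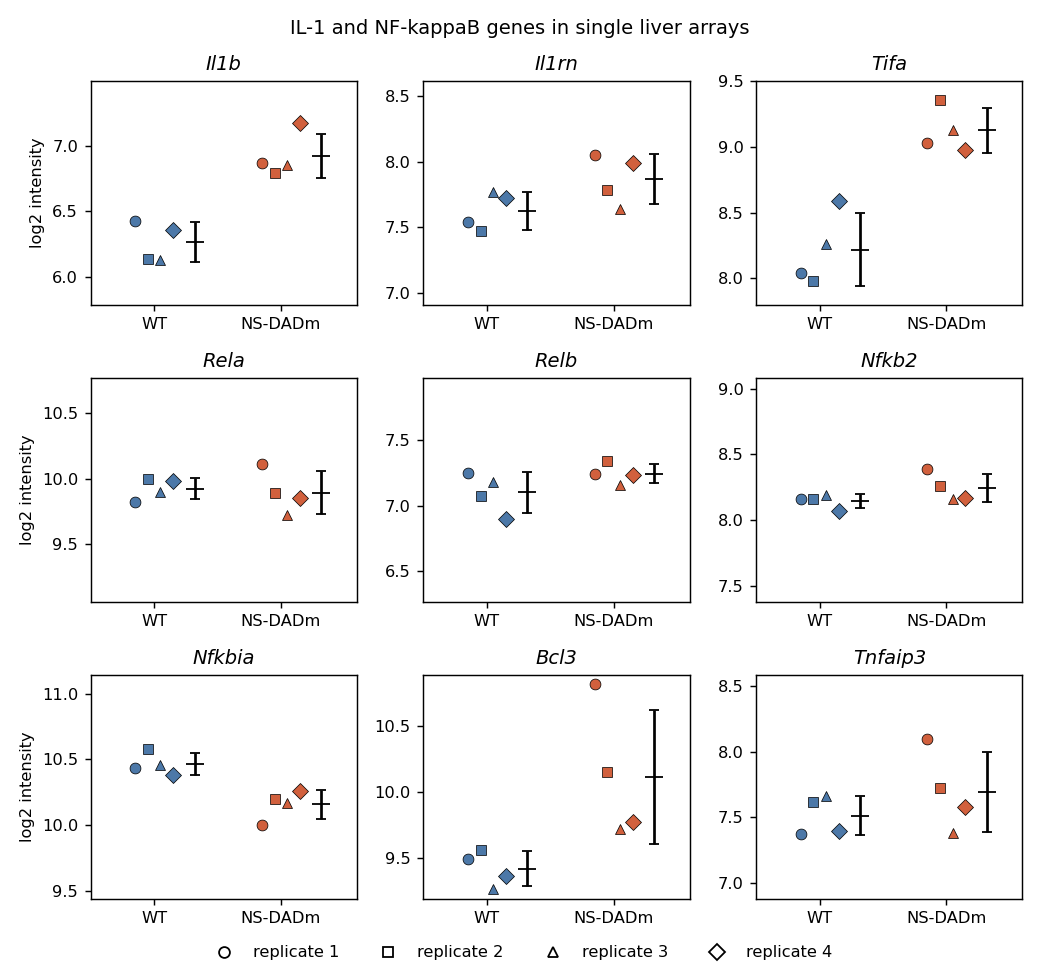
Log2 intensity of the 9 measured genes in the 4 WT (blue) and 4 NS-DADm (orange) arrays, with marker shapes for replicate numbers and black bars for mean ± SD; each panel spans the same log2 range. Il1b, Tifa, Bcl3 and Nfkbia do not overlap between the groups, and NS-DADm replicate 1 is the highest of all 8 arrays for Il1rn, Rela, Nfkb2, Bcl3 and Tnfaip3.

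The 3 Rel family subunits among the 9 genes, Rela, Relb and Nfkb2, differed little. Rel, given with its list below, differed by 0.29, and Nfkb1 was not analysed here. Rela encodes p65, the main activating subunit, and was at 9.82, 10.00, 9.90 and 9.98 in WT and 10.11, 9.89, 9.72 and 9.85 in NS-DADm arrays. NS-DADm arrays were both the highest and the lowest of the 8, and the difference was -0.04 (95% interval -0.22 to 0.15), or 0.02 without NS-DADm replicate 3. Relb and Nfkb2 encode the partners of the alternative pathway, RelB and the precursor of p52. Relb was at 6.90 to 7.25 in WT and 7.16 to 7.34 in NS-DADm arrays, a difference of 0.15 (95% interval -0.03 to 0.32), at a mean level of 7.17 that also lay below the median of all genes. Nfkb2 was at 8.07 to 8.19 in WT and 8.16 to 8.39 in NS-DADm arrays, a difference of 0.10 (95% interval -0.04 to 0.24) that was 0.05 without NS-DADm replicate 1. The groups overlapped for all 3 subunits.

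None of the 3 genes of regulators of NF-kappaB, Nfkbia, Bcl3 and Tnfaip3, passed the test. Nfkbia encodes IkB-alpha, which holds NF-kappaB dimers in the cytoplasm, and was the 1 gene of the 9 with every NS-DADm array below every WT array. It was at 10.43, 10.58, 10.46 and 10.38 in WT and 10.00, 10.20, 10.17 and 10.26 in NS-DADm arrays. The lowest WT array lay 0.12 above the highest NS-DADm array. The means were 10.46 ± 0.08 and 10.16 ± 0.11 (log2, SD, n = 4 each), a difference of -0.30 (SE 0.07), or 0.81-fold with a 95% interval of 0.73 to 0.90.

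Bcl3 encodes a nuclear IkB protein that joins p50 or p52 dimers at promoters. It was at 9.49, 9.56, 9.26 and 9.36 in WT and 10.82, 10.15, 9.72 and 9.77 in NS-DADm arrays. The groups did not overlap, but NS-DADm replicate 1 stood well above the other NS-DADm arrays. The means were 9.42 ± 0.14 and 10.12 ± 0.51 (log2, SD, n = 4 each), a difference of 0.70 with a wide 95% interval of 0.25 to 1.15, and of 0.46 without NS-DADm replicate 1. Tnfaip3 encodes A20, a ubiquitin-editing enzyme that shuts off IKK activation. It was at 7.37, 7.62, 7.66 and 7.40 in WT and 8.10, 7.72, 7.38 and 7.58 in NS-DADm arrays, with overlapping groups. Its difference of 0.18 (95% interval -0.12 to 0.48) was 0.05 without NS-DADm replicate 1. Its mean level was the nearest of the 9 above the median of all genes, and Relb was the nearest below it.

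**Figure D3:**
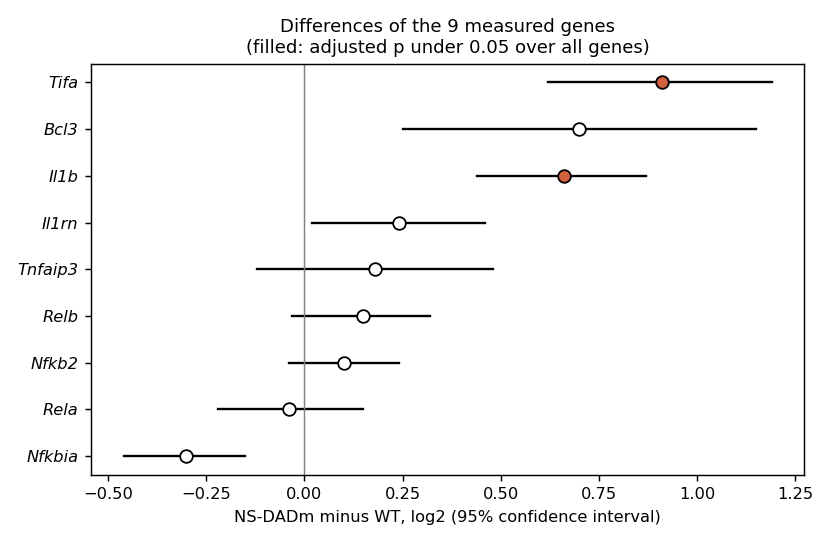
Difference between NS-DADm and WT means on the log2 scale for the 9 measured genes (points) with 95% confidence intervals from the limma fit; filled points passed an adjusted p of 0.05 over all genes. Tifa and Il1b are filled, and Nfkbia and Rela are the genes below 0.

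In limma's fit over all 19935 genes with Benjamini-Hochberg adjustment, 2 of the 9 passed a threshold of 0.05, Tifa (adjusted p = 0.0177) and Il1b (adjusted p = 0.0219), against 0.271% of all genes. The other 7 did not, with Nfkbia at an adjusted p of 0.142, Bcl3 at 0.275 and Il1rn at 0.472. Groups did not overlap for 4 of the 9, against 5.63% of all genes. Of these 3 were higher (1.8% of all genes) and 1 was lower (3.83%). Because the genes were picked with this comparison in view, neither count is read further. Il1b missed the threshold without NS-DADm replicate 3 (adjusted p = 0.061), WT replicate 2 (0.121) or WT replicate 3 (0.0786). Tifa missed it without NS-DADm replicate 2 (adjusted p = 0.0585) or 3 (0.0654), or WT replicate 1 (0.0611), 2 (0.0866) or 3 (0.0691). Their differences stayed between 0.57 and 0.71 for Il1b and between 0.83 and 1.03 for Tifa whichever array was left out.

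NS-DADm replicate 3 was the lowest of the 4 NS-DADm arrays for 6 of the 9 genes. The share of all genes lowest on that array was not counted, so the 6 is not read further. NS-DADm replicate 1 was the highest of the 4 for 5 of the 9, Il1rn, Rela, Nfkb2, Bcl3 and Tnfaip3. Replicate 1 was the highest for 30.4% of all genes. The same array had the lowest level of markers of sinusoidal endothelial cells, which line the liver's capillaries. The mean of 11 such markers, among them Stab2, Clec4g and Kdr, was 9.61, 9.79, 9.68 and 9.69 in WT replicates 1 to 4 and 9.10, 9.37, 9.39 and 9.73 in NS-DADm replicates 1 to 4. All 11 had differences below 0, while 44.3% of all genes were above 0, and their median was -0.31 against -0.01 for all genes. None passed the test over all genes (limma), and 8 of 11 were at an unadjusted p under 0.05, against 9.33% of all genes. Groups did not overlap for Clec4g, Fcgr2b and Ehd3, all lower, against 3.83% of all genes. Within the NS-DADm arrays Nfkbia was lowest and Bcl3 highest where the endothelial markers were lowest. That array, replicate 1, also had the lowest mean of all 8 arrays for Kupffer cell (8.52), stellate cell (8.53) and B cell (5.89) markers. The lowest WT means of those lists were 8.57, 8.74 and 5.91, against 9.61 for the endothelial markers. Replicate 1 thus lay further below the WT arrays for endothelial markers than for those lists.

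With the endothelial mean as a covariate, again added after the data were seen, Bcl3 differed by 0.27, Nfkbia by -0.17, Nfkb2 by 0.01, Il1b by 0.76 and Tifa by 0.86. Neither Il1b nor Tifa then passed the test (limma, adjusted p = 0.0648 for Il1b and 0.142 for Tifa). Since that mean differed between the groups itself, its part and that of genotype cannot be told apart in such a fit. With the Kupffer cell mean as covariate both Tifa (difference 0.90, adjusted p = 0.0165 in limma) and Il1b (adjusted p = 0.00506) passed. The count of all genes past the threshold was 54 without a covariate, 21 with the endothelial mean and 124 with the Kupffer cell mean. The change in calls was thus not particular to Il1b and Tifa.

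**Figure D4:**
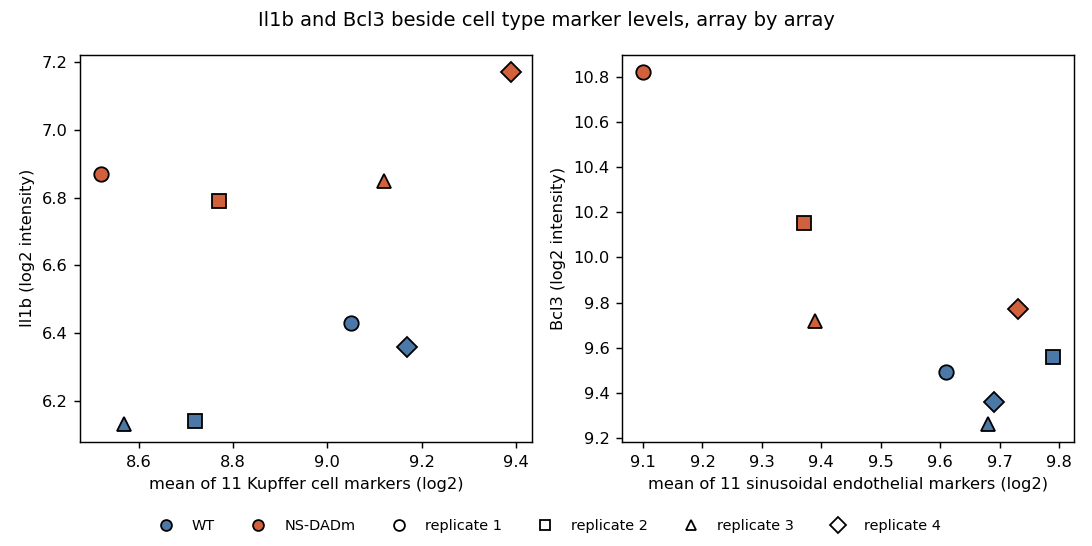
Left, Il1b against the mean of 11 Kupffer cell markers; right, Bcl3 against the mean of 11 sinusoidal endothelial markers, both in log2 intensity, for each WT (blue) and NS-DADm (orange) array. The highest Il1b (7.17) and the highest Kupffer cell mean (9.39) are on NS-DADm replicate 4. The array with the highest Bcl3 (10.82) has the lowest endothelial mean (9.10) and also the lowest Kupffer cell mean (8.52).

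The rest of the pathway showed no single gene past the test. Over 6 lists of receptors, kinases, inhibitors and targets, 92 of 99 genes were measured and 0 passed (limma, adjusted p of at least 0.31), against 0.271% of all genes. The 7 not analysed here were Il1r1, Il1rl1, Il36rn, Irak4, Traf3, Ripk1 and Chuk, so nothing is said of these. At an unadjusted p under 0.05 there were 15 of 92 (16.3%, 11 higher and 4 lower), against 9.33% of all genes. Values above 0 were found for 64 of the 92 (69.6%), against 44.3% of all genes, and the median was 0.04. Groups did not overlap for 2 of the 92 (2.17%), Ltbr, a receptor of the alternative pathway, and Itch, a ubiquitin ligase, both lower, against 5.63% of all genes in either direction and 3.83% lower.

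Among 13 genes of IL-1 family ligands and receptors, the median difference was 0.05 and 10 were above 0, against 44.3% of all genes. Il1rap, the accessory chain of the IL-1 receptor, had the largest at -0.22 (limma, adjusted p = 0.31), and Il18 followed at 0.20 (0.442). Il1a, the sister cytokine of Il1b, was at -0.01. Of 7 inflammasome genes, which process pro-IL-1 beta, 6 were above 0 (median 0.09), with Aim2 at 0.25 and Nlrp3 at 0.13.

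Upstream of IKK, 26 receptors, adaptors and kinases had a median of 0.01. Tlr2, a receptor for bacterial lipoproteins, was at 0.31 (limma, adjusted p = 0.439) and Tnfrsf1b, a TNF receptor, at -0.23 (0.571), while Tnf itself was at -0.05. For the 9 genes of the IKK complex, the other IkB proteins and Rel the median was 0.21, with 7 above 0, against 44.3% of all genes. Rel, the c-Rel subunit, was at 0.29 (limma, adjusted p = 0.588) and Ikbke, an IKK-related kinase, at 0.28 (0.652). NS-DADm replicate 1 was the highest NS-DADm array for 5 of these 9, against 30.4% of all genes. Over the 92 genes of the 6 lists it was the highest for 26 (28.3%), and for 0 of the 7 inflammasome genes. Over the 12 ubiquitin ligases and negative regulators the median was 0.00, with Tnip1, a partner of A20, at 0.23 and Itch at -0.18.

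The 25 classical NF-kappaB targets had a median of 0.10, with 18 above 0, against 44.3% of all genes. At an unadjusted p under 0.05 there were 5 higher and 0 lower, against 9.33% of all genes in either direction, and 0 passed the test over all genes (limma). The chemokine gene Cxcl10 was at 0.40 (adjusted p = 0.472) and Cxcl1, which attracts neutrophils, at 0.36 (0.589). Cxcl1 was at most 8.23 in WT arrays and at 9.02, 8.68, 8.02 and 8.20 in NS-DADm replicates 1 to 4, so only replicates 1 and 2 lay above the WT range. Of the 25, 15 were below the median level of all genes, Il6 among them, and Sod2, at a mean level of 12.30, differed by 0.00.

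Acute phase genes, the hepatocyte answer to IL-1 and IL-6, were the list with members past the test. Of 11 measured, 3 passed, Saa2, Orm2 and Lcn2, higher by 3.10-fold, 1.99-fold and 2.45-fold (limma, adjusted p = 0.0177, 0.00718 and 0.0479), against 0.161% of all genes called higher. In all 10 of the 11 were above 0 (44.3% of all genes), and 7 were higher at an unadjusted p under 0.05 (9.33% in either direction). Saa1 (2.72-fold), Orm3 (2.17-fold) and Steap4 (1.77-fold) did not pass. Orm1, Cfb and Serpina3n differed by 0.01, -0.03 and 0.06. The list's median was 0.82. Earlier results of these arrays already showed this group, so it is no independent support. Its mean was 10.09 to 10.29 in WT and 11.23, 11.05, 10.79 and 10.60 in NS-DADm replicates 1 to 4. Replicate 1 was again the highest, and replicate 4, which was highest for Il1b, was the lowest.

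**Figure D5:**
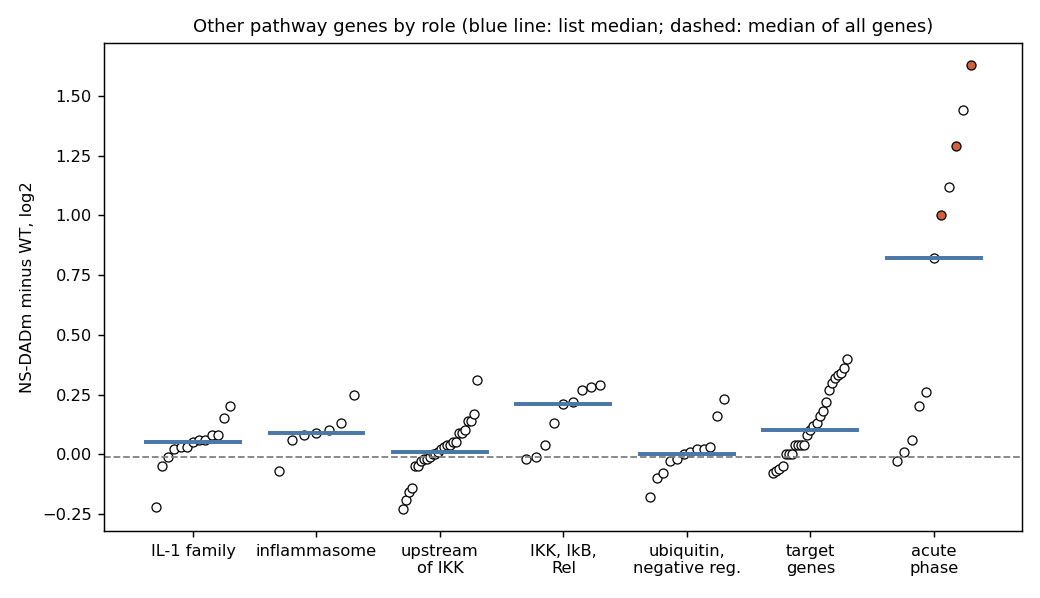
Differences between NS-DADm and WT means (log2) for the measured genes of 7 pathway lists (circles, filled where the adjusted p over all genes was under 0.05), with list medians as blue lines and the median of all genes, -0.01, dashed. Only acute phase genes hold filled circles, and the list medians of the other 6 run from 0.00 (ubiquitin ligases and negative regulators) to 0.21 (IKK, IkB and Rel).

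Array-to-array likeness was described over the deviations of the 8 arrays from their group means, among the 9968 genes at or above the median level. The genes most like Il1b were Dhx16 (r = 0.96), Tmbim1 (0.95) and Oas2 (0.94), and those most like Nfkbia were Setd1b (0.98), Npepl1 (0.98) and Mtmr4 (0.97). None of these 6 passed the test between the groups (limma, adjusted p from 0.497 to 0.982). With 8 arrays and so many genes such values are a description only.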

How the data were processed

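The authors deposited log2 intensities for 28270 probe sets on 8 arrays, and the submitters' processing notes name RMA and Partek. Versions, order of use and settings of both are not given in these sources. The log2 scale was read from the values, which run from 3.43 to 14.37, so folds hold only if that reading is right. Array medians ran from 7.39 to 7.50. No depth, detection call or batch is known, and the number of arrays limits the precision.

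Of the probe sets 21780 named 1 gene in the platform annotation, 1617 several and 4873 none. Each gene took its probe set with the highest mean among those naming it alone, with symbols updated on GRCm38.p6, which gave 19935 genes. No low-value filter was used. NS-DADm and WT arrays were compared in R 4.3.3 with limma 3.58.1 (lmFit, eBayes), two-sided, with Benjamini-Hochberg adjustment over all genes at 0.05. The fit was tested on simulated data.

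All 10 genes were described. Of each pathway list the text names genes past the threshold, or otherwise the largest 2 differences. Genes named beyond that rule were chosen after their values were seen. These are Il1a, Tnf, Tifab, Il6, Sod2, Ltbr, Saa1, Orm1, Orm3, Steap4, Cfb, Serpina3n and marker examples. The 10 genes and all lists were chosen with earlier results of these data known. Alternatives were all probe sets tested, the probe set mean, low-value filters, other normalizations and variances, array weights, a replicate block, each array left out and marker covariates. Tables and figures used Python 3.11.15.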

Additional observations from a re-analysis of the deposited data

Results flagged for a closer look

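Over 50 sets of 4 arrays (the 9 genes and 16 list means in each group), 1 value stood apart from the others of its group. The mean of 8 T and NK cell markers was 6.67 in NS-DADm replicate 4, and between 6.39 and 6.43 in the remaining 3, so that its gap was 0.833 of the group's range. Chance marks about 1 in 20 such sets. That array also had the highest Il1b (7.17) and the highest Kupffer cell marker mean (9.39). Among the NS-DADm arrays it was highest for monocyte, neutrophil, endothelial, stellate and B cell marker means as well. The part of T and NK cell markers in the Il1b result was not tested. Without that array the Il1b difference was 0.57.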

How the results depend on the processing

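Of 160 values of the 9 genes under 18 alternatives, 157 lay within 1 SD of the values given, and the 3 that did not, Bcl3, Nfkb2 and Nfkbia, came from the endothelial covariate. The count of all genes past the threshold, 54, was 109 with array weights, 105 with the replicate block, 124 and 21 with the Kupffer cell and endothelial covariates, and 13 to 126 with each array left out in turn. Leaving out WT replicate 2 gave 13 and WT replicate 3 gave 22, while leaving out NS-DADm replicates 2, 3 and 4 gave 31, 35 and 126. Genes of the 7 pathway lists past the threshold, 3 in all and all of the acute phase list (Saa2, Orm2 and Lcn2), numbered 1 with trended and robust variances, 5 and 0 with those covariates, and 1 to 5 with an array left out. Genes of the 9 past it, 2 in all, numbered 1 after the filter at the median level, which drops Il1b, 0 with the endothelial covariate, and 0 to 2 with an array left out. Deviations of same-numbered arrays of the groups correlated across genes at r = 0.15, 0.05, -0.10 and 0.25, and NS-DADm replicate 2 was most like WT replicate 1 (0.25), so the numbers were not taken as pairs. The replicate block changed no call among the 9, with an adjusted p of 0.00998 for Il1b and 0.0322 for Tifa. Genes above WT numbered 7 of 9, 5 after that filter, 6 with the endothelial covariate and 8 without NS-DADm replicate 3. Apart from the filter, the cause was not tested. Signal over background is unknown, which limits Il1b and Relb most.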

Other observations

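Markers of other cell types held no gene past the test over all genes. All 11 neutrophil markers were above 0 (0.06 to 0.22, median 0.10), against 44.3% of all genes, with list means of 6.15 to 6.31 in WT and 6.28 to 6.44 in NS-DADm livers, all 11 genes below the median level, and 0 past the test (limma, 2 at an unadjusted p under 0.05, against 9.33% of all genes). Groups did not overlap for the neutrophil marker S100a9 (difference 0.22) and the monocyte markers Ccr2 (0.14) and Itgam (0.19), all higher and named after their values were seen, against 1.8% of all genes. The hepatocyte marker Tat (-0.20) did not overlap either and was lower, against 3.83% of all genes. Of 5 monocyte markers 4 were above 0 (median 0.05), of 10 stellate cell markers 7 were below 0 (median -0.05), and of 5 cholangiocyte markers 3 were above 0 (median 0.01). T and NK cell markers had a median of 0.05 over 8 genes, B cell markers one of 0.09 over 3 and hepatocyte markers one of 0.00 over 8, again with 0 past the test (limma, with 2 monocyte, 2 stellate cell, 1 T and NK cell and 1 hepatocyte marker at an unadjusted p under 0.05).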
